A study of Mus musculus with 12 samples.

Results

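The genes described here are the interleukins, their receptors and the antagonists named with them, taken as every row of the deposited expression table whose name begins with IL and a digit. The rule found 80 of the 18090 rows. Of these, 33 were ligands, 37 were receptor subunits or accessory chains, 6 were inhibitors (secreted antagonists, binding proteins or decoy receptors) and 4 carried an interleukin name without being either. Symbols are given as the RefSeq table of assembly GRCm38.p6 has them: 76 rows matched a symbol, 3 matched a single synonym, and IL8RA matched more than 1 gene and keeps the name of its row. A 1-colour Illumina array read the RNA of 6 mutant and 6 control mice of the mixed strain C57/BL6;129Ola, all labelled P6. The mutants were villinCre;Shp2fl: the villin promoter drives Cre recombinase in the intestinal epithelium, and there it recombines the floxed allele of Ptpn11, which encodes the tyrosine phosphatase Shp2. The samples labelled control have no further genotype in the sources used here. RNA came from a whole piece of proximal small intestine, so that every cell layer was read together.

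Interleukins are small secreted proteins that carry signals between immune cells, epithelium and stroma. They act through receptor chains that pair on the target cell: the IL-1 family through receptors that recruit Myd88 and IRAK kinases, the IL-17 family through the adaptor Traf3ip2, and the IL-2, IL-6 and IL-10 groups through JAK kinases and STAT transcription factors. In the intestine, epithelial cells and stromal cells release alarm signals such as IL-18 and IL-33, and epithelial receptors for IL-22, IL-17 and lambda interferon are known for inducing antimicrobial and antiviral genes.

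Each gene is described by the lowest, the median and the highest deposited intensity (arbitrary units) among the 6 mice of a group. The log2 differences, mutant minus control, and their SE are those of a limma fit over all rows, on values shifted by an offset, which makes the log2 difference of a dim gene smaller than the ratio of its intensities. The threshold was a Benjamini-Hochberg adjusted p of 0.05. The noise limit was set at 27.8, as far above 0 as the lowest deposited value lay below it. The levels of different genes are not set against each other, since each probe has its own brightness. Pairs of arrays had correlations of 0.983 to 0.994 in the same group and 0.973 to 0.987 across groups. All 7 epithelial marker genes measured were above the limit. Ptpn11 read 1388, 1451 and 1646 in mutants and 1129, 1255 and 1480.5 in controls (log2 difference 0.21, SE 0.07, adjusted p = 0.0763), and since the position of its probe is not given, this row does not check the genotype. Pancreatic acinar transcripts were strongest in mutant 1 and control 4, with a summed intensity of 33171 and 61257, and several were also above the limit in mutant 2 and control 5, where the sums were 4730.4 and 8107. The other mutants had sums of 2833 to 5741 and the other controls 2175 to 4259. Of the acinar genes, Cela1, Ctrb1 and Clps were above the limit in every mouse. Cela2a, Cela3b, Cpa1, Cpb1 and Prss2 were above it in 2 mutants and 2 controls. Calls lost without mutant 1 and control 4 are given beside the gene or list.

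Receptors were read above the noise limit more often than ligands. By the median of the group, 18 of 37 receptor rows (48.6%) were above it in mutants and 17 (45.9%) in controls, against 10 of 33 ligand rows (30.3%) in mutants and 10 in controls. This difference was not tested, and it compares different probes. Of the inhibitors, 2 of 6 were above it in mutants and 1 in controls. Over all rows of the table the shares were 54.5% in mutants and 54.6% in controls. Altogether 34 of the 80 rows were above the limit in at least 1 group and 46 in neither, and 42 rows had no mouse above it. The limit is no detection test, and a row under it was not shown to be silent. Il1rap, described below, lay under it in every mouse, yet its groups did not overlap. Just inside the limit lay Il22ra1 and Il6ra, with a higher group median of 27.9 and 29.9, and just outside it Il2rb and Il27ra, at 25 and 21.5.

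**Figure D1:**
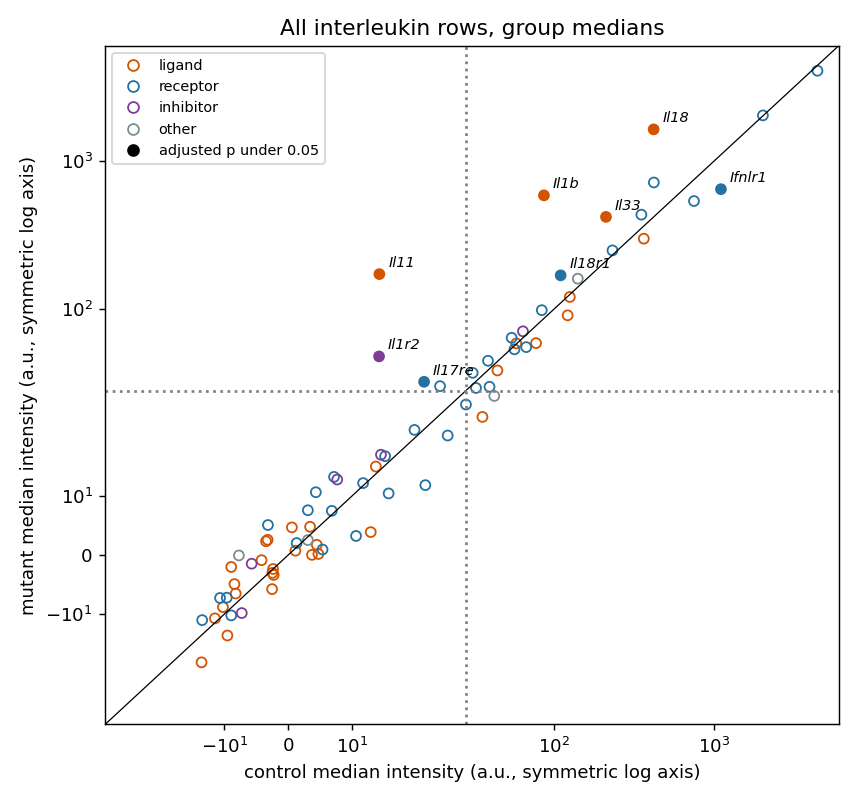
Group medians of all 80 rows, mutant (vertical) against control (horizontal), in arbitrary intensity units on symmetric log axes that are linear below the noise limit. Dotted lines mark the limit of 27.8, the diagonal marks equal medians, colours give the role, and filled points passed the threshold: 4 ligands, 1 inhibitor and 2 receptors lie above the diagonal and Ifnlr1 below it.

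Mutant intestine had higher transcript levels of the cytokines Il18, Il33, Il1b and Il11, of the receptor chains Il18r1 and Il17re and of the decoy receptor Il1r2, and a lower level of Ifnlr1, a chain of the lambda interferon receptor. That made 8 calls among the 80 rows, of which 7 were higher and 1 was lower. The background was 9.19% of all rows called (4.71% higher and 4.48% lower), so the share of interleukin rows called was close to that of all genes, and the number of calls is no result about the family. Median log2 difference was 0.02 over the 80 rows and -0.01 over the table. In 6 rows every mutant lay above every control (Il18, Il33, Il11, Il1r2, Il17re and Il1rap) and in none every mutant below, where 4.69% of all rows did not overlap in either direction. In bulk tissue, more cells of a type and more RNA per cell cannot be told apart. An alternative chosen after seeing the data left out mutants 1 and 2 and controls 4 and 5. Its calls were Il11, Il18, Il33, Il1r2 and Ifnlr1 (5 of 80), where 1081 of all 18090 rows passed. Among the 7 higher rows, mutant 4 had the lowest mutant value in 5 (Il18, Il33, Il1b, Il11 and Il1r2).

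**Figure D2:**
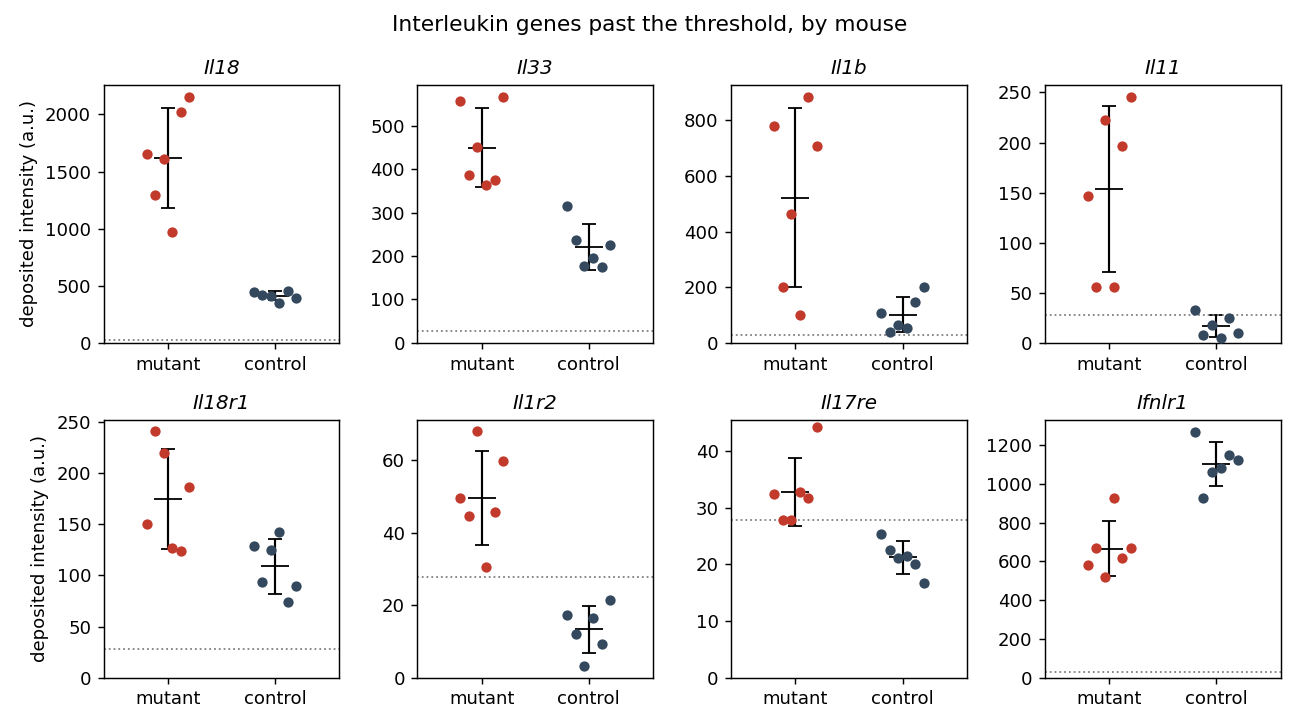
Deposited intensity (arbitrary units, each panel with its own axis from 0) of the 8 rows past the threshold, 1 point for each of 6 mutant and 6 control mice, with the mean and SD as bars and the noise limit as a dotted line. Mutant and control points are apart in Il18, Il33, Il11, Il1r2 and Il17re and overlap in Il1b, Il18r1 and Ifnlr1.

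Promoter sequence is shown as context for Il18, which had the largest log2 difference of the 80 rows in the main fit. It is also shown for Il11 and Il1r2, in which a searched motif was found. Whether the called rows share regulation was not tested. The windows are the 250 bases before an annotated start, from RefSeq on GRCm38.p6, written 5′ to 3′ on the strand of the gene, with motif matches in capitals. All 8 called genes had an annotated window, with 12 windows altogether, and those of Il18r1 overlap in part. The motifs searched on both strands were the STAT site TTCNNNGAA, the AP-1 site TGANTCA and the NF-kB site. They were found in 2, 1 and 0 of the 12 windows, against 7.02%, 6.75% and 0.356% of 32851 windows of the same length, and no matches overlapped.
Il18, chr9:50554450-50554699, plus strand, no match: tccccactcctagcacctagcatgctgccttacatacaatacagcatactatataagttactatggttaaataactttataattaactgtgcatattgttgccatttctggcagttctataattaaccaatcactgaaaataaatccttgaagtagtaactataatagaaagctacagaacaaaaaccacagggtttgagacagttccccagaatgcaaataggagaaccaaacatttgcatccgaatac
Il11, chr7:4778142-4778391, minus strand, AP-1 at -98: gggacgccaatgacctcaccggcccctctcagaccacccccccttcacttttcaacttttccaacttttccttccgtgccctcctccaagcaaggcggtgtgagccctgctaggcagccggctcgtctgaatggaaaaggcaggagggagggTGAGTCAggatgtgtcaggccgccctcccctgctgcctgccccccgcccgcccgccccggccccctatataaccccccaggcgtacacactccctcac
Il1r2, chr1:40085843-40086092, plus strand, STAT at -111: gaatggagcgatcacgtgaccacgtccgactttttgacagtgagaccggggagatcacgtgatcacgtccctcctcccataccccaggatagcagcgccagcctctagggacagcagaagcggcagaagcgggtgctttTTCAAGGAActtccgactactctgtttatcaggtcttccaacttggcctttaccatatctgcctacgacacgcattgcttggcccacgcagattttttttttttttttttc
Positions count from the start, whose first base is 1 and the base before it -1. In the window not printed here, at the third start of Il18r1, STAT matches lay at -219 and -152. A match is a string of letters and not a shown site of binding.

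Of the IL-1 family, 5 of 18 rows were higher and none lower, where 4.71% of all rows were higher and 4.48% lower, and of the 5 calls those of Il1b and Il18r1 were lost under some settings. In at least 1 group 9 rows were above the limit. Il18 encodes a cytokine made as a precursor by epithelial cells and cut by caspase-1. Its intensity was 974, 1635 and 2152 in mutants, against 351, 418 and 457 in controls, a log2 difference of 1.76 (SE 0.15, limma adjusted p = 7.48e-06). All mutants were above all controls, the controls stood close together, and the ratio of the means was 3.9. Of 7 epithelial markers 1 was higher (Krt19, a keratin) and none lower. Without mutant 1 and control 4 these markers had 1 higher and 1 lower. Their summed intensity was 32694 to 36929 in mutants and 30217 to 36682 in controls. Their part in the Il18 result was not tested. Il33, an alarm cytokine held in the nucleus of stromal, endothelial and epithelial cells, read 364, 418 and 567 in mutants and 174, 210.3 and 315 in controls (log2 difference 0.84, SE 0.13, adjusted p = 0.00102), again with no overlap. Stromal markers had 1 of 6 higher, with a summed intensity of 12114 to 19975 in mutants and 12788 to 13726 in controls, and endothelial markers had none higher and 2 of 7 lower (Tek and Emcn, both calls lost without mutant 1 and control 4, adjusted p = 0.125 and 0.0576). Whether they bear on Il33 was not tested.

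Il1b, the fever-inducing cytokine of myeloid cells, was higher in mutants but scattered. It read 101, 585 and 886 in mutants and 40, 86 and 202 in controls, a log2 difference of 1.61 (SE 0.39, adjusted p = 0.019). The ratio of its means was 5.12, against 3.9 for Il18. Mutants 2 and 4, at 200.8 and 101.1, lay within the control range, and the other 4 mutants, from 462 upwards, lay above every control. The call was lost without mutant 1 and control 4 (log2 difference 1.37, adjusted p = 0.0748), with a floor at the noise limit in place of background correction (2.24, 0.067) and with trend and robust variances (1.61, 0.0543). Of 11 neutrophil markers 5 were higher and none lower, where 4.71% of all rows were higher and 4.48% lower. The summed intensity of these markers, in mutants mostly that of S100a8, was 3441 to 11901 in mutants and 1196 to 1879 in controls. The higher ones were S100a8, S100a9, Ltf, Camp and Retnlg, the last a resistin-like protein of neutrophils (132, 470.1 and 628 in mutants, 29.7, 75.8 and 139 in controls). Of these, S100a8 and S100a9 also stand in the list of IL-22 and STAT3 targets of the epithelium. Mmp9, a protease also made by other cells, had 316, 809.6 and 1010.0 in mutants and 847, 1107 and 1501 in controls (log2 difference -0.57, adjusted p = 0.129), and Ngp did not pass either (adjusted p = 0.298). Csf3r, Mpo, Mmp8 and Cxcr2 were within the limit in every mouse, and the part of these markers in the Il1b result was not tested. Its neighbour on the chromosome, Il1a, the other founding cytokine of the family, read 62.1, 90.2 and 167 in mutants and 83.6, 121 and 219 in controls and did not pass (log2 difference -0.23, 95% interval -0.56 to 0.11, adjusted p = 0.465). Il1f10 (IL-38) read 17.6, 23.4 and 32.6 in mutants and 17, 35.5 and 52.2 in controls (adjusted p = 0.342). The IL-36 cytokine rows Il1f6 and Il1f9 had no mouse above the limit.

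On the receiving side, Il18r1, the binding chain of the IL-18 receptor, read 124, 168 and 242 in mutants and 73.7, 109 and 142 in controls (log2 difference 0.44, SE 0.13, adjusted p = 0.0485). All 6 mutants were above the control median, but mutants 4 and 5 were within the control range. It was the last row inside the threshold, before Il10rb, Il31ra and Il12b at adjusted p of 0.0624, 0.0869 and 0.087. Its call held in 8 of 20 alternative settings and was lost on leaving out any 1 of mutants 1, 2, 3 and 6 or controls 1, 2, 3, 5 and 6 (adjusted p 0.0509 to 0.108). Its partner Il18rap was within the limit in every mouse, and Il18bp, the secreted protein that binds and blocks IL-18, read 39.5, 70.4 and 110.0 in mutants and 53.3, 63.5 and 108 in controls (log2 difference -0.02, 95% interval -0.29 to 0.24).

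Il1rl1 encodes ST2, the receptor of IL-33 and its soluble decoy form, which a row of 1 gene symbol does not separate. It read 338, 715 and 829 in mutants and 268, 419 and 609.6 in controls, and with a log2 difference of 0.54 (SE 0.19) it missed the threshold (adjusted p = 0.101). Of the mutants, 4 were above every control, and mutant 4 was the lowest at 338. Without mutant 4 the difference was 0.70 and passed (adjusted p = 0.00991). With array weights it passed too, at 0.62 (0.0399).

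Il1r2, the decoy receptor that takes up IL-1 without signalling, read 30.5, 47.6 and 67.9 in mutants, all above the noise limit, and 3.3, 14.2 and 21.4 in controls, all within it. The log2 difference was 0.51 (SE 0.08, adjusted p = 0.000902), and the mutant level was at least 1.73-fold higher, taking the limit as the control level. The signalling receptor Il1r1 had no mouse above the limit and neither did Il1rn, the secreted IL-1 receptor antagonist. The shared accessory chain Il1rap lay under the limit throughout, at 11.3, 13.2 and 14.4 in mutants and 6, 7.2 and 9.9 in controls, and did not pass (adjusted p = 0.15) although the groups did not overlap. In the annotation Il1r2, Il1r1, Il1rl2, Il1rl1, Il18r1 and Il18rap follow one another with no other protein-coding gene between them. Within this run of 6 genes, Il1r2 and Il18r1 passed, and Il1r1, Il1rl2 and Il18rap had both medians within the limit.

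Il11 was the member of the IL-6 group that changed. It encodes a cytokine of stromal and epithelial cells that signals through gp130. Mutants had 55.6, 172 and 246 and controls 4.8, 14.3 and 33.3, a log2 difference of 1.27 (SE 0.22, adjusted p = 0.00221). No mutant was within the control range, mutants 2 and 4 were the lowest, and 5 of 6 controls were within the noise limit, so no ratio is given. It passed in all 20 alternative settings, with log2 differences from 1.15 to 2.19. Il11ra1, its binding receptor, read 3352, 4076 and 4858 in mutants and 4070.2, 4429.6 and 5279 in controls (log2 difference -0.18, 95% interval -0.39 to 0.03, adjusted p = 0.33). The shared chain gp130, from Il6st, read 188, 248 and 318 in mutants and 159, 231 and 392 in controls (log2 difference 0.07, 95% interval -0.29 to 0.42). Neither receptor row passed, and their groups overlapped. Il6, the cytokine of acute inflammation, had no mouse above the limit, and its receptor Il6ra read 23.2, 29.9 and 44.3 in mutants and 17.2, 23.8 and 26.3 in controls (adjusted p = 0.255). Il27 and Il31ra were within the limit in every mouse, and both medians of Il27ra were within it.

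Ifnlr1, deposited under the old symbol IL28RA, was the one row that fell. It encodes the chain that binds lambda interferons and pairs with Il10rb. The intensity was 516, 644 and 928 in mutants and 926, 1103 and 1268 in controls, a log2 difference of -0.68 (SE 0.11, adjusted p = 0.00157), and the ratio of means was 0.603. Only mutant 4, at 928, reached the control range, whose lowest mouse was control 2 at 926. The call held in all 20 settings (log2 difference -0.78 to -0.62). Il10rb, which also serves the IL-10 and IL-22 receptors, read 432, 536 and 745 in mutants and 637, 747 and 895 in controls (log2 difference -0.39, SE 0.12, adjusted p = 0.0624). All 6 mutants were below the control median and 4 were below every control. It passed without mutant 2 (-0.44, adjusted p = 0.0418), without mutant 5 (-0.47, 0.0197), and when dim rows were left out of the adjustment (-0.39, 0.0437). Il22ra1, the epithelial IL-22 receptor and the neighbour of Ifnlr1 in the annotation, lay around the limit, at 19.7, 25.5 and 42.1 in mutants and 13.9, 27.9 and 36.5 in controls (log2 difference 0.03, 95% interval -0.13 to 0.19). Il10ra, the binding chain of the IL-10 receptor, read 40.8, 55 and 82.2 in mutants and 45.2, 66.6 and 82.1 in controls, and the IL-20 receptor chain Il20rb read 29.7, 36.9 and 43.7 in mutants and 23.9, 30.8 and 40.2 in controls. Neither passed (adjusted p = 0.871 and 0.425). The ligands Il10, Il19, Il20, Il22 and Il24, the receptor Il20ra and the secreted IL-22 binding protein Il22ra2 had no mouse above the limit.

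In the IL-17 family the receptor chains had a median above the noise limit in at least 1 group, and the cytokines mostly did not. Il17re, the chain that binds IL-17C, lay at 27.8, 32 and 44.2 in mutants and 16.7, 21.3 and 25.4 in controls, a log2 difference of 0.17 (SE 0.05, adjusted p = 0.0435). The groups did not overlap, but every control was within the limit and mutant 2 at its edge. That call held in 4 of 19 settings and was lost in 10 of 12 leave-one-out fits, all except those without mutant 2 or control 1 (adjusted p of the others 0.0536 to 0.0899), and without mutant 1 and control 4 (0.103). Il17rc, the IL-17A and IL-17F receptor chain next to it in the annotation, read 328, 433 and 463 in mutants and 269.7, 350.3 and 408 in controls (log2 difference 0.21, adjusted p = 0.208). Il17ra, the chain shared by the family, read 24.2, 44.5 and 57.7 in mutants and 33.3, 38.4 and 60.4 in controls (log2 difference 0.02, 95% interval -0.15 to 0.20). The groups overlapped in both. Il17rb, the IL-25 receptor chain, read 47.3, 63.6 and 68.3 in mutants and 50.9, 54 and 69.1 in controls (log2 difference 0.03, 95% interval -0.10 to 0.16). Il17rd, an inhibitor of growth factor signalling also called Sef, read 42.6, 53.1 and 68.9 in mutants and 45.2, 56.2 and 65.7 in controls (log2 difference 0.00, 95% interval -0.13 to 0.13). Il17d read 38.9, 58.2 and 76.3 in mutants and 44, 57.7 and 72.4 in controls (log2 difference 0.00). Il17a, Il17b, Il17c, Il17f and Il25 had no mouse above the limit.

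The remaining families held no call. Il7, the stromal and epithelial cytokine that lymphocytes need, read 218, 298 and 338 in mutants and 213, 363 and 459 in controls (log2 difference -0.26, 95% interval -0.55 to 0.04, adjusted p = 0.307). Without control 4, the lowest control, the difference was -0.37 and passed (adjusted p = 0.0416). Il15, which sustains intraepithelial lymphocytes, read 105, 120.2 and 167 in mutants and 110.4, 125 and 145 in controls, the groups overlapping (log2 difference 0.03, 95% interval -0.15 to 0.20). Its receptor Il15ra read 18.2, 29.6 and 38.7 in mutants and 33.5, 39.2 and 45.4 in controls (log2 difference -0.14, adjusted p = 0.177). The common gamma chain Il2rg read 5, 29.1 and 59.9 in mutants and 9, 32.3 and 45.5 in controls (adjusted p = 0.833). Il13, a type 2 cytokine, read 31.6, 38.2 and 47.1 in mutants and 24.6, 44 and 69.9 in controls (log2 difference -0.10, 95% interval -0.27 to 0.08). Il13ra1, its signalling receptor, read 1785, 2033 and 2382 in mutants and 1862, 2019 and 2189 in controls, with a log2 difference of 0.00 and a 95% interval of -0.15 to 0.15. For Il3ra, the IL-3 receptor, values were 55.2, 97.8 and 148 in mutants and 47.6, 83.3 and 95.9 in controls (adjusted p = 0.531). Il16, a lymphocyte attractant, read 42.3, 58.5 and 89.3 in mutants and 62, 76.8 and 150.5 in controls (log2 difference -0.23, adjusted p = 0.263).

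Members with both medians within the limit in these families were Il2ra, Il2rb, Il3, Il4, Il4ra, Il5, Il5ra, Il7r, Il9, Il9r, Il13ra2, Il21 and Il21r, along with all 6 rows of the IL-12 and IL-23 group (Il12a, Il12b, Il12rb1, Il12rb2, Il23a and Il23r). In the IL-1 family the same held for Il1f5 (the IL-36 antagonist) and Il1rapl2. Of these and the other rows under the limit, 4 had at least 1 mouse above it (Il1rl2, Il2rb, Il5ra and Il27ra), and none had a mouse above 2 times the limit. Of the 4 rows that are neither ligand nor receptor of an interleukin, the chemokine receptor rows IL8RA and Cxcr2 (IL8RB) were within the limit. Tmed1, deposited as IL1RL1L, a trafficking protein once taken for a ligand of Il1rl1, read 138, 159.7 and 229 in mutants and 109, 140.1 and 247 in controls. Il4i1, an amino acid oxidase, read 17, 26.9 and 75.5 in mutants and 23.1, 42 and 111 in controls. Neither passed (adjusted p = 0.717 and 0.445).

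**Figure D3:**
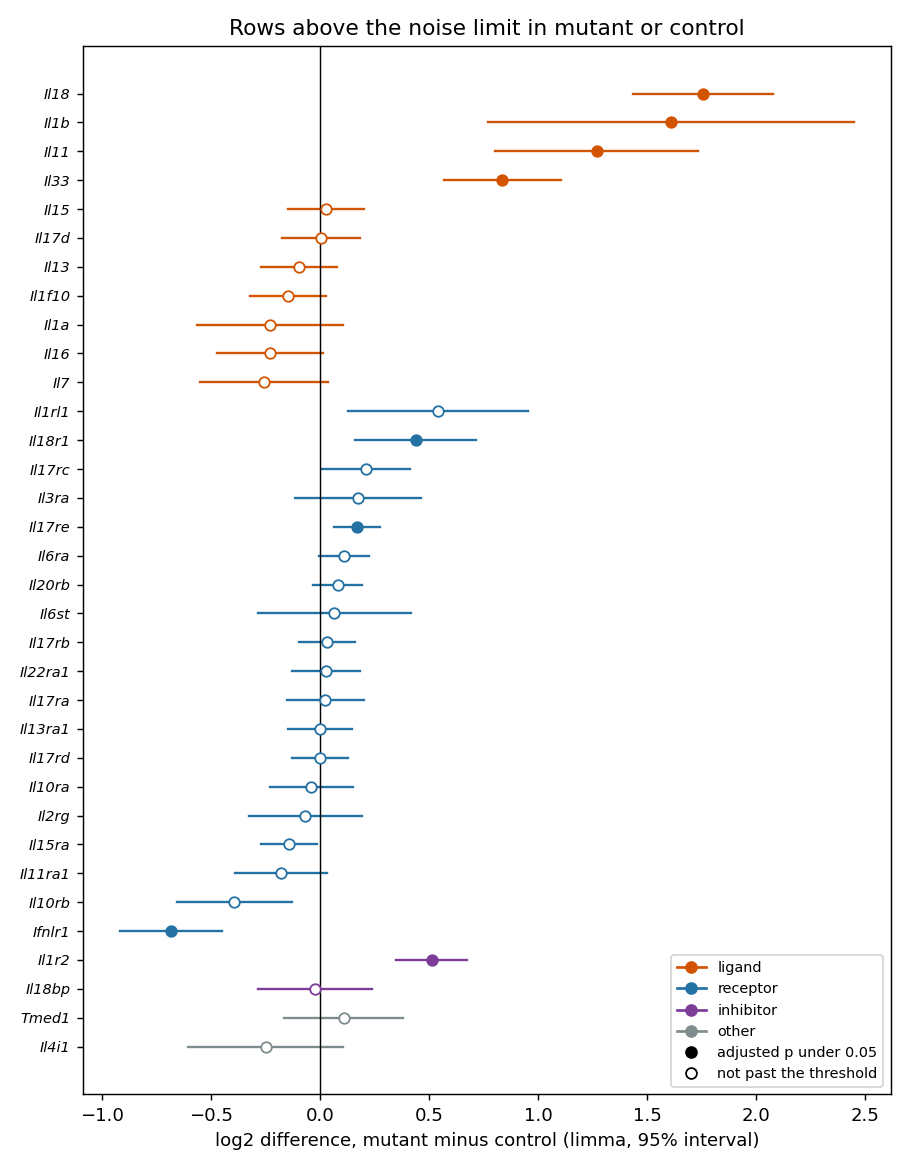
Log2 difference (mutant minus control, limma) with its 95% interval for the 34 rows above the noise limit in at least 1 group, ordered by role and size, filled where the adjusted p was under 0.05. Il18, Il1b, Il11 and Il33 stand at the top of the ligands, from 0.84 to 1.76, while the receptors lie between -0.68 and 0.54.

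Genes that act behind these receptors were read from lists of pathway members, where 29 distinct genes passed, and 22 without mutant 1 and control 4. Over all rows 4.71% were higher and 4.48% lower, the shares to set beside each list. Some listed genes had both medians within the noise limit. They were 2 of 11 JAK and STAT genes, 4 of 15 inhibitors and 13 of 25 related cytokines and receptors. In the IL-1 and IL-18 list it was 1 of 21, and in the IL-17 list 4 of 12. In the IL-22 and STAT3 list they were 3 of 15, and in the IL-4 and IL-13 list 5 of 12. The offset keeps their log2 differences small, which can draw a list median towards 0. Of 11 JAK and STAT genes none passed (limma, 2 at an unadjusted p under 0.05, median log2 difference -0.03), with Stat3 at 1336, 1573 and 1784 in mutants and 1362, 1474 and 1567 in controls (log2 difference 0.07). Among 15 SOCS genes and other inhibitors of cytokine receptors, 1 was higher and 2 lower (median -0.04). The higher one was Socs3, a feedback inhibitor induced by STAT3, at 386, 769 and 1162 in mutants and 313, 412 and 417 in controls (log2 difference 0.81, adjusted p = 0.0226). Its groups overlapped in mutant 4 alone, and the call was lost without mutant 1 and control 4 (0.81, adjusted p = 0.0624) and without mutant 6 (0.71, 0.0528). The lower ones were Socs5 and the phosphatase Ptpn6, with log2 differences of -0.23 and -0.32, and the Socs5 call was lost without mutant 1 and control 4 (adjusted p = 0.0731). Among 25 related cytokines and receptors without interleukin names, 3 were higher and 1 lower (median -0.04). Osm, oncostatin M, read 51.5, 97 and 188 in mutants and 19.8, 27.5 and 34.9 in controls without overlap (log2 difference 0.81, adjusted p = 0.00715). Its receptor Osmr, which pairs with gp130, read 401, 568 and 742 in mutants and 271, 326 and 461 in controls (log2 difference 0.60, adjusted p = 0.0181), and lost its call without mutant 1 and control 4 (0.57, adjusted p = 0.0624). Csf2rb2 was called higher with every mouse within the limit, and the macrophage receptor Csf1r was lower (-0.60, adjusted p = 0.0254). The Csf1r call was lost on leaving out mutant 3 or any 1 of controls 1, 2 and 3 (adjusted p 0.0517 to 0.0611).

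Of 21 IL-1 and IL-18 signalling and processing genes, 1 was higher and 2 lower (median -0.05). Pycard, the inflammasome adaptor, read 678, 749 and 903 in mutants and 458, 537 and 616 in controls without overlap (log2 difference 0.48, adjusted p = 0.0021). Casp1, whose protease cuts the IL-1beta and IL-18 precursors, read 8902, 11200.4 and 12844 in mutants and 10850.2, 12569 and 14236 in controls and did not pass (adjusted p = 0.254). Tollip, which restrains IL-1 receptor signalling, was lower in every mutant than in any control (1165, 1394 and 1644 in mutants, 1652, 1754 and 2054 in controls, log2 difference -0.35). Traf6 was lower by a small step (log2 difference -0.17), a call lost in 9 of 12 leave-one-out fits (adjusted p 0.052 to 0.0957) and without mutant 1 and control 4 (0.0935).

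Of the pathway lists, that of the epithelial target genes of IL-22 and STAT3 held the most calls. In the IL-17 list 5 of 12 were higher and none lower (median 0.34): the acute-phase protein Saa3, the iron-binding defence protein Lcn2, the neutrophil attractant Cxcl1, the antibody transporter Pigr and the ribonuclease Zc3h12a, whose call was lost without mutant 1 and control 4 (adjusted p = 0.0659). Cxcl1 read 139, 595 and 1064 in mutants and 25.8, 50.5 and 72.9 in controls (log2 difference 2.12, adjusted p = 0.00174), with all mutants above all controls. In the list of IL-22 and STAT3 targets of the epithelium 10 of 15 were higher and none lower (median 1.44), among them the lectins Reg3b, Reg3g and Reg3a and the calcium-binding protein S100a8. These 10 calls became 9 without mutant 1 and control 4, and 8 without mutants 1 and 2 and controls 4 and 5. Of the 10, S100a8 and S100a9 are also in the list of neutrophil markers, and their part in the count was not tested. Lcn2 stands in both target lists, and Socs3 also in that of the inhibitors. Il22 itself read -21.5 to -4.3 in mutants and -16.9 to -12.6 in controls, all within the limit, and Il17a was likewise within it. In the list of IL-4 and IL-13 targets 4 of 12 were higher and 2 lower (median 0.12). These 6 calls became 3 without mutant 1 and control 4, 3 without control 5 and 2 with a floor at the noise limit. Without mutant 1 and control 4 those of Arg1, Ccl11 and Clca1 were lost (adjusted p of Arg1 = 0.16). Retnlb, an antibacterial goblet cell protein, read 82.4, 268 and 594 in mutants and -9.5, 1.2 and 12.1 in controls, all controls within the limit (log2 difference 2.21, adjusted p = 0.000741). Ccl11, the eosinophil attractant, read 518, 769 and 1376 in mutants and 352, 439 and 602 in controls (log2 difference 0.74, adjusted p = 0.0312), a call lost on leaving out any 1 of mutants 1 and 5 and controls 3, 5 and 6 (adjusted p 0.0594 to 0.0703) and without mutant 1 and control 4 (0.0712). Ccl24, the other Ccl gene called in this list, went the other way. It read 286, 314 and 397 in mutants and 327, 518 and 635 in controls (log2 difference -0.49, adjusted p = 0.0254). That call held without mutant 1 and control 4 (adjusted p = 0.00722). Clca1, a goblet cell product, was lower (1091, 2338 and 6694 in mutants, 4018, 6531 and 8506 in controls, adjusted p = 0.0164), with mutant 4 inside the control range, a call lost without mutant 1 and control 4 (adjusted p = 0.0552). Mrc1, a macrophage lectin, was higher (0.57, adjusted p = 0.00802). Many of these target genes also answer to other signals, and the lists were drawn up with earlier results of these data known.

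**Figure D4:**
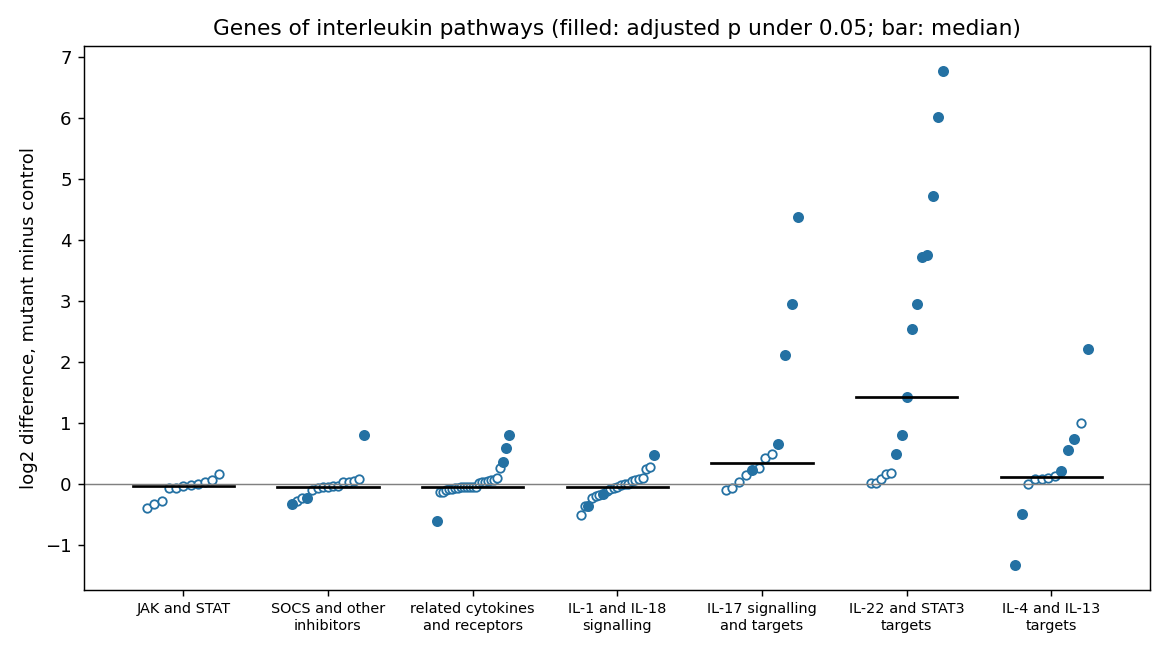
Log2 difference (mutant minus control, vertical) of each measured gene in 7 pathway lists, 1 point per gene, filled where the adjusted p was under 0.05, with the list median as a bar. The JAK and STAT list has no filled point, while the IL-17 and IL-22 target lists reach 4.38 and 6.78.

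Markers of the cells that make or receive interleukins were read in the same piece of tissue, where 4.71% of all rows were higher and 4.48% lower. T cell markers had no call among 10 genes, with a summed intensity of 228 to 532 in mutants and 175 to 609.9 in controls, and 6 of them, Cd4 and Cd8a included, had both medians within the limit. B cell markers had no call among 5, and eosinophil markers none among 4. At an unadjusted limma p under 0.05 there were 0 in each of these lists and in that of T cells. Of 11 macrophage and dendritic cell markers, Cd14, Mrc1 and Cd163 were higher, Cd163 with both medians within the limit, and Csf1r and Adgre1 were lower. Among 9 mast cell markers Hdc, the histamine-forming enzyme, was higher (182, 358 and 455 in mutants, 55.2, 71.6 and 101 in controls), while the proteases Mcpt1, Mcpt2, Tpsb2 and Cma1 had both medians within the limit. Mcpt4, Cpa3 and Fcer1a had both medians above it and did not pass (limma adjusted p = 0.922, 0.223 and 0.54). Tuft cells, the epithelial source of IL-25, had 2 of 8 markers higher (Alox5ap and Plcg2), and Trpm5, Pou2f3, Gfi1b and Avil had both medians within the limit. Dclk1 and Ptgs1 had both medians above it and did not pass (log2 difference -0.10 and 0.17, limma adjusted p = 0.548 and 0.372). Smooth muscle markers had 1 of 6 higher, and pancreatic acinar markers had no call among 9 (1 at an unadjusted p under 0.05), with a summed intensity of 2833 to 33171 in mutants and 2175 to 61257 in controls. Without mutant 1 and control 4 the acinar list had 1 gene higher and 2 lower. The part of these cell types in the interleukin results was not tested.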

How the data were processed

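Total RNA of 12 mice was hybridised to a 1-colour Illumina array, per the labels' protocols. The deposited intensities, 1 value per gene symbol and mouse, were, judging by their values, already background-subtracted and normalized: 22.5% were below 0 and column medians were 41.8 to 43.4. The submitters' processing notes name GenomeStudio and Partek. A second table with 24 columns of values whose headings match no sample was not used. Intensities were passed through normexp (offset 50), quantile normalized and log2-transformed. All rows were then fitted with limma 3.58.1 in R 4.3.3 (group as the only term, two-sided, Benjamini-Hochberg over 18090 rows). The fit was tested on simulated data. Quantile normalization hides a shift of all genes together, and the number of mice limits the precision. Exact permutation tests used all 924 assignments (smallest possible p 0.00216). Alternatives were another offset, a floor at the noise limit, no further normalization, a filter on dim rows, trend and robust variances, array weights, a replicate block and mice left out (1 of these chosen after seeing the data). Named with values were all members past the threshold or with a median above the limit, up to 4 called genes of each pathway list, and Ptpn11 and Vil1. Other list and marker genes named were chosen after their values were seen. The members and lists were chosen with earlier results of these data known. The labels call the samples biological replicates. The innate lymphoid marker list is not reported here.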

Additional observations from a re-analysis of the deposited data

Results flagged for a closer look

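Some mice stood apart from the other 5 of their group in a named gene, by Dixon's test at the 95% level. This was so in 6 of 116 groups tested, where chance flags about 1 in 20. Among the interleukin rows, control 1 had 150.5 for Il16, while the remaining controls had 62 to 85.4. Mutant 6 had 44.2 for Il17re, while the remaining mutants had 27.8 to 32.8. Control 6 had 17.2 for Il6ra, while the remaining controls had 23.1 to 26.3. Among the pathway genes, mutant 4 had 6693.8 for Clca1 (remaining mutants 1091 to 2795), mutant 1 had 3030.2 for Reg3a (remaining mutants 1351 to 1962), and control 3 had 2053.7 for Tollip (remaining controls 1652 to 1776).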

How the results depend on the processing

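The 8 calls of interleukin rows became 5 with a floor at the noise limit and no normexp, where 1004 of all rows passed, against 1663. Between 6 and 9 rows were called under the other planned settings, and leaving out 1 mouse gave 6 to 8. For all rows these fits gave 1247 to 1694 calls, for pathway list genes 24 to 32 (29 with all mice), and for rows above the noise limit 33 to 34. Il11, Il18, Il33, Il1r2 and Ifnlr1 passed in all 20 planned settings and without those mice named next. Without mutants 1 and 2 and controls 4 and 5, chosen after seeing the data, 5 interleukin rows and 1081 of all rows passed, fewer mice being tested. Il1b (adjusted p = 0.0819), Il17re (0.164) and Il18r1 (0.166) were then lost. No call changed sign. With replicate numbers as a block, 7 interleukin rows and 1702 of all rows passed. Il10rb was gained (adjusted p = 0.026), and Il17re (0.109) and Il18r1 (0.0542) were lost. Residuals of same-numbered mice correlated at -0.11 to 0.27. Mice with different numbers were not compared, so whether the numbers pair the mice was not tested. The exact permutation test gave p under 0.05 for all 8 called rows (0.00216 to 0.0195) and, of the uncalled rows above the noise limit, for Il10rb, Il15ra, Il1rl1 and Il6ra (0.013 to 0.0411), unadjusted. Every mouse of a group was above the noise limit in 28 rows, and 23 rows had a median above 2 times the limit. Vil1 read 7220.5, 8661 and 10319 in mutants and 7985, 8855 and 11086 in controls (adjusted p = 0.801).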
